A study of Arabidopsis thaliana with 2 samples.

Results

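The protein disulfide isomerases of the PDIL1 and PDIL2 groups of Arabidopsis thaliana are 9 genes, PDIL1-1 to PDIL1-6 and PDIL2-1 to PDIL2-3. They were taken by locus identifier from the 33322 nuclear loci measured in pollen, and were chosen with earlier results of these data known. RNA sequencing compared pollen of the ecotype Ler-0 with pollen of the ecotype Col-0, with 1 library of each, and series materials name no treatment, mutant or transgene for either. Per the labels' protocols, pollen was shaken from open flowers of long-day plants, filtered and frozen, and libraries were made from total RNA depleted of rRNA. No number of plants is given. All 9 genes were found in both tables, and 7 of the 9 reached an FPKM (reads counted, scaled to gene span and library depth) of at least 1 in either library. PDIL1-2, PDIL1-3, PDIL1-4 and PDIL2-3 reached it in the Ler-0 library only.

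Protein disulfide isomerases work in the lumen of the endoplasmic reticulum (ER), where secreted and membrane proteins fold. They carry thioredoxin-like domains whose paired cysteines form, break and rearrange disulfide bonds in client proteins, and the oxidase ERO1 returns the cysteines to their oxidised state. When misfolded proteins build up, the unfolded protein response raises ER folding genes, several PDIL genes among them in Arabidopsis, through bZIP transcription factors. Pollen secretes large amounts of wall and membrane protein during tube growth.

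The site that does this chemistry separates the members before any level is considered. The first active site of each gene is shown because the members differ in it. The sequences were read from the spliced coding sequences of the TAIR10.1 annotation (RefSeq), 5′ to 3′, and capitals mark the 4 active site codons between flanks of 12 bases.
PDIL1-1: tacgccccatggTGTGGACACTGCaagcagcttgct
PDIL1-2: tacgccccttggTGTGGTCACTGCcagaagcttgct
PDIL1-3: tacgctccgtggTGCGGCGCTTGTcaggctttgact
PDIL1-4: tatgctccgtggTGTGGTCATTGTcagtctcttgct
PDIL1-5: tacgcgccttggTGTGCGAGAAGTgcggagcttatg
PDIL1-6: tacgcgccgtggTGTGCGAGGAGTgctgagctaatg
PDIL2-1: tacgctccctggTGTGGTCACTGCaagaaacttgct
PDIL2-2: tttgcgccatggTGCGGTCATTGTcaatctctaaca
PDIL2-3: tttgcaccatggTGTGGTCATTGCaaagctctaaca

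PDIL1-1, PDIL1-2, PDIL1-4 and all 3 PDIL2 genes encode the classic site, cysteine, glycine, histidine, cysteine, and each encodes it 2 times. In PDIL1-3 the third codon of the first site is GCT, an alanine codon, and its second site is classic. In PDIL1-5 and PDIL1-6 the fourth codon of the first site is AGT, a serine codon, so that site lacks its second cysteine. The second site of that pair has both cysteines around other residues.
PDIL1-5, second site: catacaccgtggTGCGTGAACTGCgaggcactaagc
PDIL1-6, second site: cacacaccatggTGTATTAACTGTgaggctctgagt
The predicted proteins run from 361 residues in PDIL2-1 to 597 residues in PDIL1-4. In 7 of the 9 they end in the ER retention signal KDEL, and PDIL2-1 and PDIL2-2 do not.

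In the Ler-0 library the family was led by PDIL1-1 and PDIL1-2, and in the Col-0 library by PDIL2-2, PDIL2-1 and PDIL1-1. Summed over the 9 genes, FPKM was 21.7 in Ler-0 pollen against 6.83 in Col-0 pollen, a ratio of 3.18. PDIL1-1 and PDIL1-2 together held 14.0 FPKM in Ler-0 and 1.42 FPKM in Col-0, a ratio of 9.81. The other 7 genes together held 7.77 FPKM in Ler-0 and 5.41 FPKM in Col-0, a ratio of 1.44. With 1 library of each ecotype, differences have no replicate check and p-values are not given. The ecotype, the plants and the making of the library cannot be told apart. Intervals below are 95% intervals for counting error only (Poisson for FPKM, Clopper-Pearson for ratios). Fewer cells of a type and less RNA per cell cannot be told apart in such bulk samples.

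**Figure D1:**
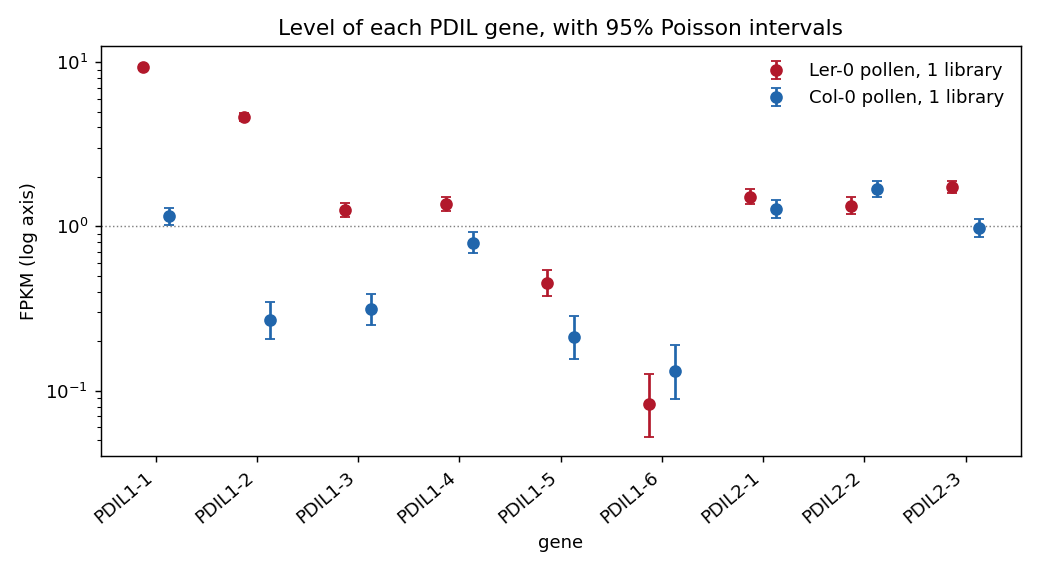
FPKM of each PDIL gene on a log axis, Ler-0 left of Col-0 within each gene, with 95% Poisson intervals (counting error only, 1 library each) and a dotted line at FPKM 1. PDIL1-1 and PDIL1-2 stand furthest apart between the libraries, while the points of PDIL2-1 and PDIL2-2 lie close together.

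PDIL1-1 (AT1G21750, TAIR10 chromosome 1, 7645700 to 7648841, plus strand) is a classic protein disulfide isomerase, known in Arabidopsis as a chaperone that restrains vacuolar cysteine proteases in the seed coat. It was at 9.30 FPKM (8.94 to 9.66, 2598 reads) in Ler-0 and 1.15 FPKM (1.02 to 1.297, 277 reads) in Col-0. The ratio was 8.06 (7.12 to 9.16). By FPKM it stood at percentile 92.3 of all loci in Ler-0 and at percentile 78.1 in Col-0, and it was the most abundant member in Ler-0 only.

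PDIL1-2 (AT1G77510, chromosome 1, 29126650 to 29129612, plus strand) is the closest relative of PDIL1-1, with 78.9% identity of the predicted proteins. It was at 4.66 FPKM (4.4 to 4.925, 1227 reads) in Ler-0 and 0.269 FPKM (0.206 to 0.346, 61 reads) in Col-0. Its ratio of 17.3 (13.4 to 22.8) was the highest of the 9 genes, and its interval did not overlap that of PDIL1-1. In order of FPKM it was second of 9 in Ler-0 and seventh of 9 in Col-0. PDIL1-1 exceeded it 2.00-fold (1.86 to 2.14) in Ler-0 and 4.28-fold (3.24 to 5.75) in Col-0.

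PDIL1-3 (AT3G54960, chromosome 3, 20363310 to 20366840, minus strand), the member with an alanine codon in its first site, was at 1.26 FPKM (1.14 to 1.395, 397 reads) in Ler-0 and 0.315 FPKM (0.251 to 0.389, 85 reads) in Col-0. That was a ratio of 4.02 (3.17 to 5.14). PDIL1-4 (AT5G60640, chromosome 5, 24371007 to 24374038, minus strand), its nearest relative at 55.7% protein identity, was at 1.37 FPKM (1.24 to 1.52, 370 reads) in Ler-0 and 0.798 FPKM (0.687 to 0.922, 185 reads) in Col-0. Its ratio of 1.72 (1.44 to 2.06) lay below that of PDIL1-3, with no overlap of intervals. Within Ler-0 both stood at about one level, PDIL1-3 over PDIL1-4 being 0.921 (0.798 to 1.06). Within Col-0 PDIL1-3 was lower, at 0.395 of PDIL1-4 (0.301 to 0.513).

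PDIL1-5 and PDIL1-6, the pair with serine codons in the first site, were the least abundant members in both libraries and stayed under FPKM 1. PDIL1-5 (AT1G52260, chromosome 1, 19460570 to 19463445, plus strand) was at 0.454 FPKM (0.375 to 0.544, 116 reads) in Ler-0 and 0.214 FPKM (0.157 to 0.284, 47 reads) in Col-0, a ratio of 2.12 (1.50 to 3.05). PDIL1-6 (AT3G16110, chromosome 3, 5460793 to 5463760, minus strand) had 22 reads in Ler-0 (0.0834 FPKM) and 30 reads in Col-0 (0.132 FPKM). Its ratio of 0.631 (0.347 to 1.13) has an interval that includes 1, so a difference was not detectable at this depth. For scale, 3 reads in a gene of 3 kb are 0.0112 FPKM in Ler-0 and 0.0131 FPKM in Col-0.

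The PDIL2 genes carry their 2 active sites nearer to each other than the PDIL1 genes do. PDIL2-1 (AT2G47470, chromosome 2, 19481420 to 19484015, plus strand), named UNE5 in the annotation and known for its part in embryo sac maturation and pollen tube guidance, was at 1.52 FPKM (1.36 to 1.68, 350 reads) in Ler-0. In Col-0 it was at 1.28 FPKM (1.13 to 1.45, 254 reads), a ratio of 1.18 (1.01 to 1.40). Its level intervals overlap between the libraries. Its 3′ end shares 97 bases with AT2G47480 on the opposite strand, which had 21 reads in Ler-0 and 13 reads in Col-0. Since the use of strand is not given in the sources used here, reads of that stretch cannot be assigned.

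PDIL2-2 (AT1G04980, chromosome 1, 1413644 to 1416144, minus strand) and PDIL2-3 (AT2G32920, chromosome 2, 13962318 to 13965472, minus strand) resemble the mammalian P5 isomerase and are 77.1% identical in protein. PDIL2-3, also called PDI9, has been linked to pollen development under heat stress in Arabidopsis. PDIL2-2 was at 1.34 FPKM (1.19 to 1.50, 298 reads) in Ler-0 and 1.69 FPKM (1.51 to 1.88, 323 reads) in Col-0. It was lower in Ler-0, with a ratio of 0.793 (0.675 to 0.931). PDIL2-3 was at 1.74 FPKM (1.59 to 1.90, 488 reads) in Ler-0 and 0.978 FPKM (0.857 to 1.11, 236 reads) in Col-0, and higher in Ler-0 by a ratio of 1.78 (1.52 to 2.09). The order of this pair therefore differed between the libraries, PDIL2-3 over PDIL2-2 being 1.3 (1.12 to 1.50) in Ler-0 and 0.579 (0.488 to 0.687) in Col-0.

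In order of FPKM, the Ler-0 library ran PDIL1-1, PDIL1-2, PDIL2-3, PDIL2-1, PDIL1-4, PDIL2-2, PDIL1-3, PDIL1-5, PDIL1-6. The first 2 and the last 2 genes were separated from their neighbours by intervals that do not overlap, and neighbours among the 5 between them were not. The Col-0 library ran PDIL2-2, PDIL2-1, PDIL1-1, PDIL2-3, PDIL1-4, PDIL1-3, PDIL1-2, PDIL1-5, PDIL1-6. There only PDIL2-2 from PDIL2-1, and PDIL1-4 from PDIL1-3, had separate intervals. FPKM was computed on the gene span, introns included, which is 1.31 to 1.82 times the summed exon length of these genes. Per kilobase of exon, PDIL1-3 and PDIL1-4 changed places in Ler-0 (2.01 and 1.80) and the Col-0 order did not change.

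As a share of summed family FPKM, PDIL1-1 made up 42.8% in Ler-0 against 16.9% in Col-0, and PDIL1-2 made up 21.4% in Ler-0 against 3.94% in Col-0. The 3 PDIL2 genes made up 21.2% in Ler-0 against 57.8% in Col-0. Their summed level differed less, at 4.60 FPKM in Ler-0 and 3.95 FPKM in Col-0 (ratio 1.16). The 6 PDIL1 genes summed to 17.1 FPKM in Ler-0 and 2.88 FPKM in Col-0 (ratio 5.95). The Ler-0 library thus held mainly PDIL1 RNA among the 9 genes, and the Col-0 library mainly PDIL2 RNA.

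**Figure D2:**
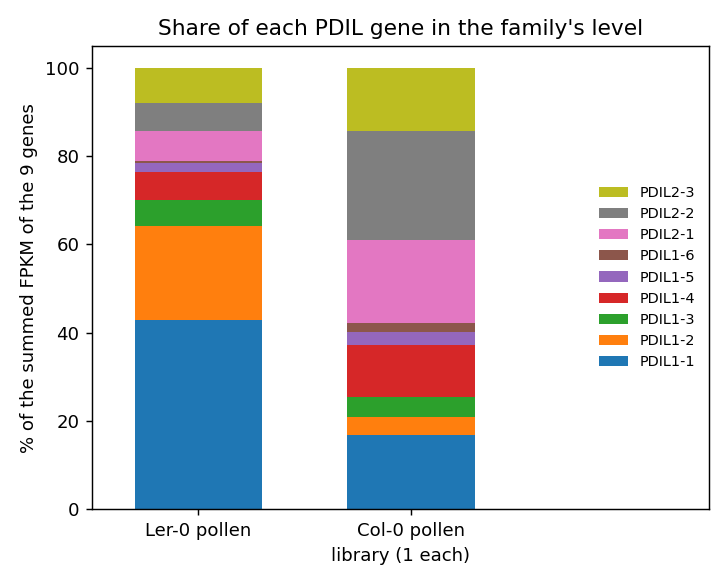
Share of the summed FPKM of the 9 PDIL genes held by each gene, in percent, in the Ler-0 library and the Col-0 library. PDIL1-1 and PDIL1-2 together hold 64.2% in Ler-0 against 20.8% in Col-0.

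To set the family beside all genes, log2 ratios of FPKM + 1, Ler-0 over Col-0, were centred by subtracting their median of 0.06 over the 6656 loci at FPKM 1 or more in both libraries. Of the 7 members at FPKM 1 or more in either library, 2 exceeded 4-fold in the Ler-0 direction, PDIL1-1 (2.20) and PDIL1-2 (2.09), and 0 were at least 2-fold or 4-fold lower. Among all 9562 loci at that level, 3.44% were at least 4-fold higher, 11.3% at least 2-fold higher, 10.3% at least 2-fold lower and 2.22% at least 4-fold lower. A value above 0 was found in 6 of the 7 members and in 53.1% of those loci. The median over the 7 members was 0.41, beside 0.06 over all 9562 loci. Of the 7 genes, 4 passed the filter only through Ler-0, so these counts are a description and support no statement about the family.

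A pseudocount of 1 shrinks the ratio of genes near FPKM 1, so the same was done without one over the 24466 loci with at least 20 reads in all, which all 9 members had. PDIL1-2 (4.03), PDIL1-1 (2.93), PDIL1-3 (1.93) and PDIL1-5 (1.01) passed 2-fold in the Ler-0 direction, as did 23.6% of loci. PDIL1-1 and PDIL1-2 were at least 4-fold higher, where 7.05% of loci were, and 0 members were at least 2-fold or 4-fold lower, where 13.5% and 4.62% of loci were. Of the 9 members, 7 had a value above 0, as did 59.3% of loci. The remaining values were 0.75 for PDIL2-3, 0.70 for PDIL1-4, 0.16 for PDIL2-1, −0.41 for PDIL2-2 and −0.75 for PDIL1-6. The share of the 9 members at least 2-fold higher was 4 of 9, and the median was 0.75 beside 0.25 over all those loci. PDIL1-2 stood at percentile 98.3 and PDIL1-1 at percentile 96.7 of all ratios, while PDIL2-1 stood at percentile 46.7.

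**Figure D3:**
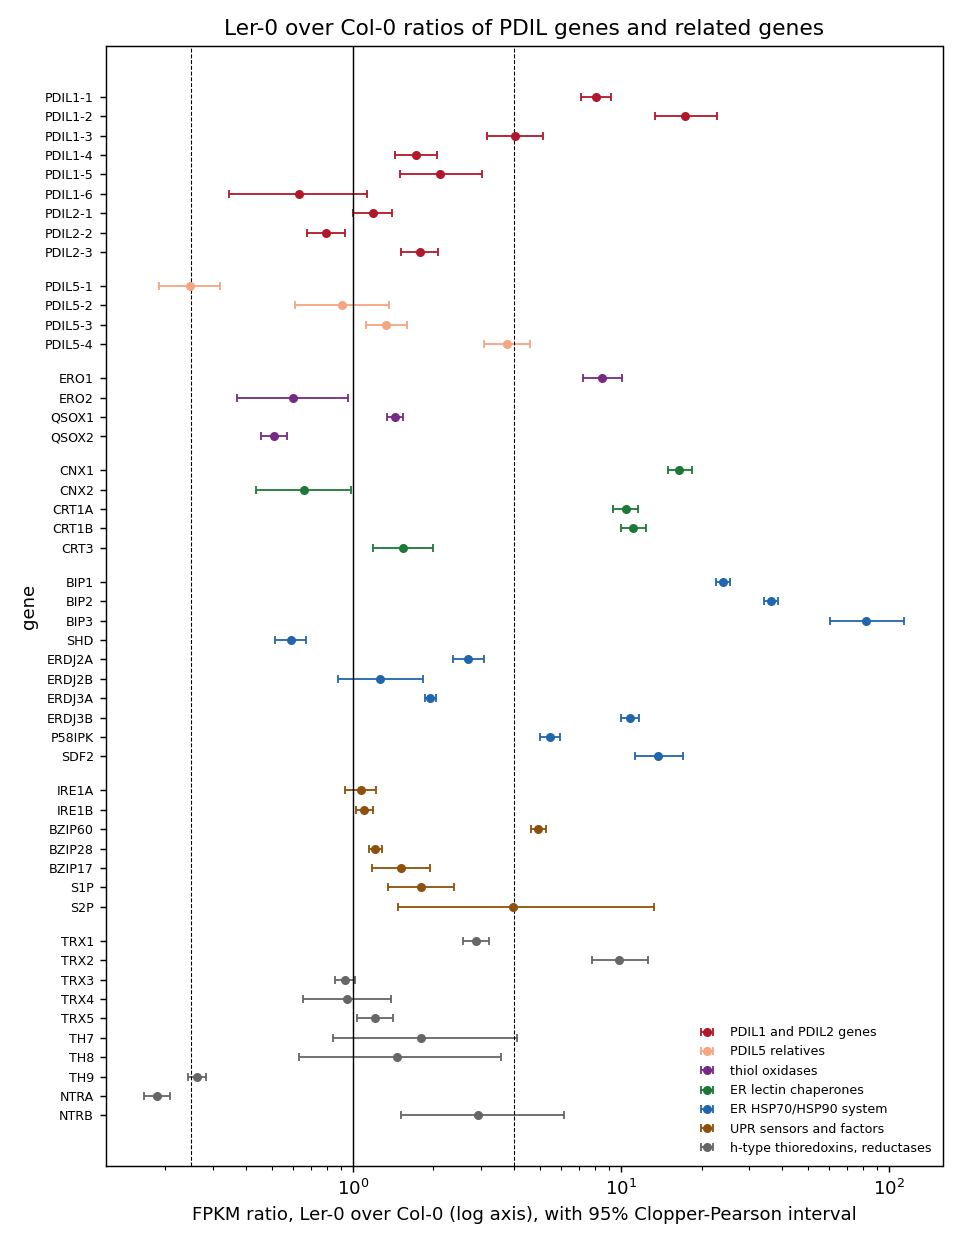
FPKM ratio of Ler-0 to Col-0 on a log axis for the PDIL genes and for the fixed lists of related ER and thioredoxin genes, with 95% exact intervals (counting error only). The solid line marks a ratio of 1 and the dashed lines a 4-fold difference either way. PDIL1-1, PDIL1-2 and ERO1 lie above 4, as do PDIL1-3 (4.02), CNX1, CRT1A, CRT1B, the BiP genes, ERDJ3B, P58IPK, SDF2, BZIP60 and TRX2, and the PDIL2 genes lie between 0.793 and 1.78.

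Reads shared between members could have blurred these differences, so copies were sought. None of the 9 genes had another locus at 95% identity over at least 50% of its length. The length is the gene span, introns included, so sharing of reads over shorter stretches, such as single exons, was not tested. The longest match between PDIL1-1 and PDIL1-2 was 842 bases at 76.6% identity. Apart from PDIL2-1, no member overlapped another locus. The 18 loci that flank the 9 genes were counted on the centred log2(FPKM + 1) scale, with no filter on level. Of these, 0 passed 2-fold in the Ler-0 direction, beside 3.24% of all 33322 loci. At least 2-fold lower was 1, AT1G52270 beside PDIL1-5 (0.565 FPKM in Ler-0 and 31.7 FPKM in Col-0), beside 2.97% of all loci. Many of the 18 were under FPKM 1 in both libraries, where the pseudocount keeps a locus from passing 2-fold upwards. The count therefore does not show that the flanking loci are alike between the libraries. The neighbour that lies just beyond PDIL1-1, AT1G21760, was at 4.72 FPKM in Ler-0 and 3.10 FPKM in Col-0.

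The protein-coding genes with levels most like those of PDIL1-1, by Euclidean distance on log2(FPKM + 1) over the 2 libraries, were SEC3B (AT1G47560, 9.88 FPKM in Ler-0 and 1.18 FPKM in Col-0), AT3G51110 (8.83 and 1.29 FPKM) and FHA2 (AT3G07220, 8.51 and 1.202 FPKM). The distances were 0.082, 0.11 and 0.12. With 2 libraries, such likeness says only that the 2 levels are close.

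Thiol oxidases of the secretory pathway, a list that includes ERO1, differed in opposite directions. Of the 4 listed, ERO1 (AT1G72280) was at 6.16 FPKM in Ler-0 and 0.723 FPKM in Col-0, a ratio of 8.51 (7.21 to 10.099), close to that of PDIL1-1. Its paralog ERO2 was at 0.123 FPKM (32 reads) in Ler-0 and 0.205 FPKM (46 reads) in Col-0, with a ratio of 0.598 (0.369 to 0.960). The sulfhydryl oxidases of the other family were at 7.59 FPKM in Ler-0 and 5.29 FPKM in Col-0 for QSOX1, and at 1.76 FPKM in Ler-0 and 3.47 FPKM in Col-0 for QSOX2. QSOX2 shares 63 bases with AT2G01275, which had 2337 reads in Ler-0 and 3992 reads in Col-0, so its value is uncertain. Of the 3 with FPKM at least 1 in either library, 1 was past 2-fold upwards (ERO1) and 0 were past it downwards. Their median centred log2 ratio was 0.39. Over all 4 without a pseudocount, 1 was past 2-fold upwards and 1 downwards (QSOX2, −1.06), with a median of −0.19. ERO1 reached FPKM 1 in the Ler-0 library only.

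The 4 PDIL5 genes, which are more distant relatives, included values in both directions. PDIL5-4 (AT4G27080), related to ER to Golgi cargo proteins, was at 1.40 FPKM in Ler-0 and 0.374 FPKM in Col-0, a ratio of 3.75 (3.09 to 4.58). PDIL5-1 (AT1G07960) was at 0.434 FPKM in Ler-0 and 1.75 FPKM in Col-0, a ratio of 0.248 (0.190 to 0.321), and was the 1 gene of the 4 at least 2-fold lower on the centred scale. The median over the 2 that reached FPKM 1 was −0.13, and 0.06 over all 4 without a pseudocount. The ratios were 1.34 (1.12 to 1.59) for PDIL5-3 and 0.910 (0.609 to 1.36) for PDIL5-2, both under FPKM 1. PDIL5-2 and PDIL5-3 share 2 and 46 bases with a neighbouring locus.

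The lectin chaperones calnexin and calreticulin, which hold glycoproteins while disulfides form, were measured for 5 genes. CNX1 was at 31.3 FPKM in Ler-0 and 1.89 FPKM in Col-0, CRT1A at 18.1 FPKM in Ler-0 and 1.74 FPKM in Col-0, and CRT1B at 13.8 FPKM in Ler-0 and 1.24 FPKM in Col-0. Their ratios of 16.6 (14.9 to 18.4), 10.4 (9.38 to 11.6) and 11.1 (10.0 to 12.4) lie between those of PDIL1-1 and PDIL1-2. CNX2 and CRT3 stayed under FPKM 1, with ratios of 0.656 and 1.54. All 3 lectin genes with FPKM at least 1 in either library exceeded their Col-0 level at least 4-fold, and their median centred log2 ratio was 2.74.

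Among 10 ER chaperones of the HSP70 and HSP90 systems and their cofactors, 9 reached FPKM 1 in either library and 6 of these exceeded 4-fold in the Ler-0 direction, with a median of 2.56. The BiP gene BIP3 was at 16.7 FPKM in Ler-0 and 0.204 FPKM in Col-0, and the cofactor SDF2 at 9.36 FPKM in Ler-0 and 0.677 FPKM in Col-0. Both are among the 6 and passed the filter only through Ler-0. The rest of the 6 were above FPKM 1 in both libraries. BIP1 was at 133.2 FPKM in Ler-0 and 5.54 FPKM in Col-0, and BIP2 at 161.1 FPKM in Ler-0 and 4.44 FPKM in Col-0. ERDJ3B was at 34.2 FPKM in Ler-0 and 3.16 FPKM in Col-0, and P58IPK at 16.2 FPKM in Ler-0 and 2.99 FPKM in Col-0. BIP1 and BIP2 are 94.1% identical over 2642 bases, so reads may be split between them. SHD, the ER HSP90, went the other way, at 1.01 FPKM in Ler-0 and 1.72 FPKM in Col-0, a ratio of 0.587 (0.513 to 0.670). Of 7 sensors and transcription factors of the unfolded protein response, 4 reached FPKM 1 in either library and 1 was at least 2-fold higher, with a median of 0.13. This was BZIP60, at 39.6 FPKM in Ler-0 and 8.03 FPKM in Col-0, while BZIP28 was at 14.4 FPKM in Ler-0 and 11.9 FPKM in Col-0. The sensor kinase IRE1B, which splices the BZIP60 RNA, was at 5.69 FPKM in Ler-0 and 5.14 FPKM in Col-0.

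Cytosolic thiol chemistry was represented by 8 h-type thioredoxins and 2 NADPH-dependent thioredoxin reductases. The thioredoxins share the thioredoxin fold with protein disulfide isomerases but not their compartment. Of the 10 genes, 6 had FPKM at least 1 in either library. Among these, 2 passed 2-fold upwards in Ler-0 and 2 passed it downwards, with a median centred log2 ratio of −0.0025 (0.33 over all 10 without a pseudocount). TRX2 was at 7.98 FPKM in Ler-0 and 0.809 FPKM in Col-0, and TRX1 at 15.3 FPKM in Ler-0 and 5.32 FPKM in Col-0. NTRA was at 2.10 FPKM in Ler-0 and 11.3 FPKM in Col-0, and TH9 at 7.47 FPKM in Ler-0 and 28.4 FPKM in Col-0. TRX2 reached FPKM 1 in the Ler-0 library only, and it shares 15 bases with a neighbouring locus.

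Promoters were searched on both strands, over 250 bases before the gene start of the deposited tables, for motifs bound by unfolded protein response factors. The main one, the ER stress response element (ERSE), is CCAAT, 10 bases of any kind, then CACG. It was present in 3 of 9 members (PDIL1-1, PDIL1-2 and PDIL2-2) and in 0.943% of 26713 protein-coding promoters. The matches are given on the strand of the gene, with the CCAAT and CACG parts in capitals, because PDIL1-1 and PDIL1-2 are the 2 members furthest apart between the libraries and PDIL2-2 is not.
PDIL1-1, chr1:7645621-7645639, plus strand: CCAATtagagatagcCACG
PDIL1-2, chr1:29126564-29126622, plus strand: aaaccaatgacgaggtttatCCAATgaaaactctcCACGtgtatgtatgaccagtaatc
PDIL2-2, chr1:1416218-1416236, minus strand: CGTGtgacaatatcATTGG

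The match lay 79 to 61 bases before the start in PDIL1-1, 66 to 48 in PDIL1-2 and 92 to 74 in PDIL2-2, where it reads in reverse. In PDIL1-1 and PDIL1-2 the CACG overlaps a G-box (CACGTG), a motif found in 3 of 9 members and in 7.73% of promoters. The PDIL1-1 match and its G-box fall inside the gene span of TAIR10.1, whose gene starts differ from those of the tables in part. With the TAIR10.1 starts, ERSE was present in 2 of 9 members, again PDIL1-1 and PDIL1-2, and in 0.700% of promoters. The PDIL2-2 match has 1 of its 19 bases inside the TAIR10.1 gene span and so is not counted there. The PDIL1-1 match in that window is a second one, 187 to 169 bases before the start and in reverse.
PDIL1-1, chr1:7645403-7645461, plus strand: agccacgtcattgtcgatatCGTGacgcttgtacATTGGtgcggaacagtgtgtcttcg

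The related ERSE-II (ATTGG, 1 base of any kind, then CCACG) was in 0 of 9 members and 0.0749% of promoters. UPRE-III (TCATCG) was in 1 of 9, PDIL1-3, and in 6.80% of promoters. The ACGT core, which the G-box contains, was in 7 of 9 members and 45.7% of promoters. With the TAIR10.1 starts, the G-box was in 2 of 9 members (PDIL1-2 and PDIL1-3, not PDIL1-1) and in 6.58% of promoters. The ACGT core was then in 5 of 9 members and 44.2% of promoters. A match describes letters only and does not show a bound site.

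**Figure D4:**
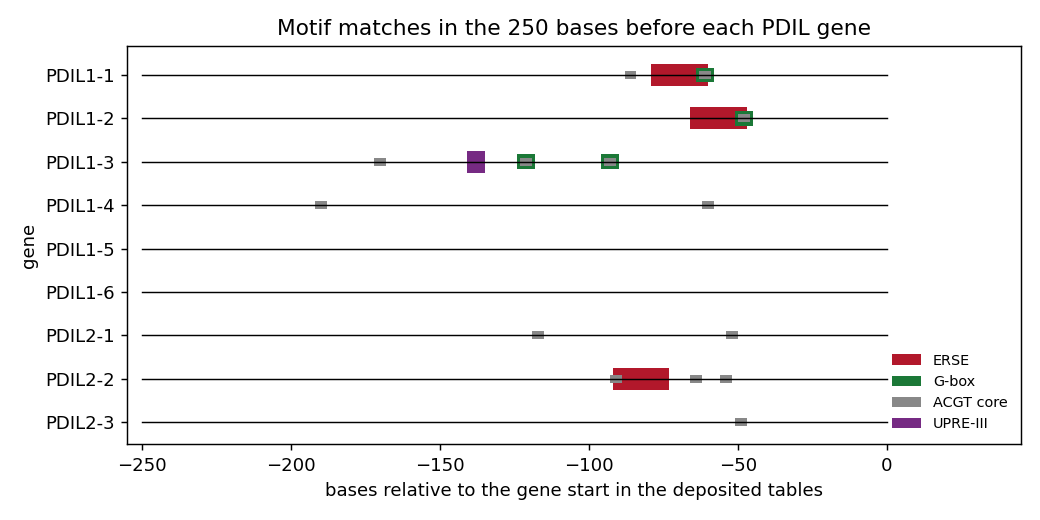
Positions of the searched motifs in the 250 bases before the gene start of each PDIL gene in the deposited tables, with distance from the start in bases on the x axis. ERSE matches appear in PDIL1-1, PDIL1-2 and PDIL2-2, and in PDIL1-1 and PDIL1-2 they overlap a G-box.

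ERSE matches and ratios were set side by side over 32 genes, the 9 members, the PDIL5 genes, the thiol oxidases and the ER chaperones. Of the 10 with a match, 8 exceeded 4-fold in the Ler-0 direction, namely PDIL1-1, PDIL1-2, CNX1, CRT1A, CRT1B, BIP3, ERDJ3B and P58IPK. The other 2, PDIL2-2 and SHD, were lower in Ler-0. Of the 22 with no match, 14 reached FPKM 1 in either library and 3 of these were at least 4-fold higher, namely BIP1, BIP2 and SDF2. PDIL1-2, BIP3 and SDF2 reached FPKM 1 only through Ler-0, and the lists were chosen with earlier results known. These counts are therefore a description only, and a role of the motif was not tested. BIP1 and BIP2 hold ERSE-II, but wholly inside their TAIR10.1 gene spans, and neither has a match with the TAIR10.1 starts. P58IPK shares 56 bases with a neighbouring locus. Outside these 32 genes, 120 protein-coding genes with an ERSE match reached FPKM 1 in either library, and 13 of them (10.8%) were at least 4-fold higher, beside 3.44% of all 9562 loci. The 9562 loci are not all protein-coding, so these shares rest on unlike sets. With the TAIR10.1 starts, 6 of the 32 genes held a match and 5 of those were at least 4-fold higher, as were 6 of the 18 without a match that reached FPKM 1. The ERSE matches of CNX1, CRT1B and ERDJ3B lie wholly inside their TAIR10.1 gene spans and are not counted there.

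The libraries held 88952509 reads in Ler-0 and 76488187 reads in Col-0. Summed FPKM of 6 vegetative cell markers was 10064 in Ler-0 against 11715 in Col-0. On the centred scale 3 of them were above 0 and 3 below. CPK34 (460.8 FPKM in Ler-0 against 130.6 FPKM in Col-0) was the 1 vegetative marker at least 2-fold higher. VGD1 was lower (3073 FPKM in Ler-0 against 5875 FPKM in Col-0). Summed FPKM of 4 sperm markers was 150.3 in Ler-0 against 73.4 in Col-0. MGH3 made up most of the sperm sum (138.2 FPKM in Ler-0 against 57.98 FPKM in Col-0) and was the 1 at least 2-fold higher, while GEX2 was lower (5.84 FPKM in Ler-0 against 11.6 FPKM in Col-0). No marker of another tissue was at 0. The 6 green tissue markers, all at FPKM 1 or more in either library, summed to 56.9 in Ler-0 against 52.2 in Col-0, with 0 at least 2-fold higher and 1 at least 2-fold lower. The highest of them, LHCB1.1 (33.1 FPKM in Ler-0 against 28.9 FPKM in Col-0), exceeded the sperm markers other than MGH3. Floral organ identity genes (5, of which 2 reached FPKM 1) summed to 3.78 in Ler-0 against 2.60 in Col-0, and 5 tapetum markers, none reaching FPKM 1, summed to 0.583 in Ler-0 against 1.11 in Col-0. The 9 PDIL genes are active in many tissues, and the part of other cells in their values was not tested. Reads of Ler-0 were aligned to TAIR10, a Col-0 genome, and the effect on these genes was not tested.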

How the data were processed

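The authors deposited 1 table of FPKM for each library, a value for each gene, per the file headers. Subread and TAIR10 are named without a version in the submitters' processing notes, and the sources used here give neither the rule for shared reads nor the use of strand. FPKM times gene span was a whole multiple of 1 step in 100% of values, within 0.01, so reads were recovered. The analysis had been planned for FPKM without counts, and reads were used for intervals (95%, counting error only) and for the ratios without a pseudocount. Levels are FPKM, and ratios are Ler-0 over Col-0. Counts past 2-fold or 4-fold used log2(FPKM + 1), centred, in loci at FPKM 1 or more in either library. The flanking loci were counted on that scale without the filter. Fold changes on the log2(FPKM + 1) scale understate those of low genes. Ratios without a pseudocount, and promoter windows with TAIR10.1 starts, were chosen after seeing the data. Genes named by rule are the 9 members, the 6 related lists, the marker lists and the 3 genes nearest to PDIL1-1. AT1G52270, AT1G21760, AT2G47480 and AT2G01275, which flank or overlap a listed gene, were named after their values were seen. Members and lists were chosen with earlier results of these data known. The counting procedure was tested on simulated reads with counting error only, so that test does not cover variation between plants or libraries. Copies were sought with BLAST 2.17.0, and the rest used Python 3.11.15, pandas 2.3.3, SciPy 1.17.1 and Biopython 1.88.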

Additional observations from a re-analysis of the deposited data

How the results depend on the processing

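The 9 centred log2 ratios kept their sign under each of the 10 alternatives in which they were computed. Alternatives that change only the filter on low values leave these ratios as they were, so they could not change a sign. A change of pseudocount could do so only through the centring. Medians of the other lists did not all keep theirs: that of the PDIL5 genes, −0.13 in the report, was 0.15 without the 100 loci with most reads and 0.19 with summed exon length, that of the thiol oxidases was −0.19 without a pseudocount, and those of the thioredoxins, green tissue markers and floral organ genes also changed sign under some alternatives. With a pseudocount of 0.1 the median over members was 0.69, and with a pseudocount of 5 it was 0.14, with 1 member at least 2-fold higher and 0 at least 4-fold higher. A filter at FPKM 5 left PDIL1-1 alone, so both counts were 1 and the median was 2.20. Without a pseudocount, over loci with 20 or more reads (chosen after seeing the data), 4 members were at least 2-fold higher and the median was 0.75. PDIL1-3 joined the members at least 2-fold higher, making 3, with a pseudocount of 0.1 and without the 100 loci with most reads, and it was the third member past a threshold of 1.5-fold. PDIL1-2 ranged from 0.84 to 4.03 and PDIL1-1 from 1.18 to 2.93, so the size on the log scale depends on the pseudocount. Centring on genes at FPKM 10 or more put the median of all loci at FPKM 1 or more in either library at 0.16, against 0.06 in the report. No paired analysis was possible because there is 1 Ler-0 library and 1 Col-0 library, and for the same reason neither could be left out. Depth limits PDIL1-6, with 22 and 30 reads, and the Col-0 level of PDIL1-2, with 61 reads.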
